A study of Mus musculus with 8 samples.

Results

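The genes described here encode the proteins of the cytoplasmic ribosome. They were chosen by symbol (Rps or Rpl followed by a number and at most 1 letter, or Rplp0, Rplp1, Rplp2 or Rpsa) and were also selected on their measured level, with at least 1 FPKM (fragments mapped to a transcript per kilobase of its length, scaled to the number mapped in the library) required in at least 1 of the 4 groups. Of 23356 genes in the expression table, 80 had such a symbol and 79 passed the level: 31 of the small subunit and 48 of the large subunit. The gene just inside the threshold was Rpl39l, with 1.72 FPKM in its highest group, and the only gene outside it was Rpl10l, with 0.0294 FPKM in its highest group.

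RNA was sequenced from bone marrow-derived dendritic cells (BMDCs) to ask how dendritic cells respond to the loss of microtubules, with and without GEF-H1, a guanine nucleotide exchange factor that is held on microtubules and is encoded by Arhgef2. The cells were grown from marrow of C57BL/6N mice aged 8 to 16 weeks for 6 days in GM-CSF (10 ng/ml) and IL-4 (10 ng/ml). The 4 groups were WT cells left untreated, WT cells given 100 nM ansamitocin-P3 (AP3) for 5 h, Arhgef2-/- cells left untreated and Arhgef2-/- cells given the same AP3 treatment. The Arhgef2-/- cells came from mice that lack the gene in every tissue, and AP3 is a maytansine derivative that destabilises microtubules. Each group had 2 libraries, which the authors combined into 1 FPKM value per gene with a 95% interval from Cuffdiff, so that no difference below has a replicate check or a p-value. The number of reads obtained behind each value is unknown.

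A ribosome has a small subunit, which reads the mRNA, and a large subunit, which joins amino acids, and each holds 1 copy of nearly every ribosomal protein around its ribosomal RNA. The mRNAs of these proteins are among the most abundant of a cell, and most begin with a C and a run of C and T (a terminal oligopyrimidine, or TOP, sequence) through which mTOR signalling controls their translation. Dendritic cells change their protein synthesis as they mature, and RNA levels alone do not show translation.

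Arhgef2 itself stood at 42.3 FPKM in untreated WT cells, 45.9 in AP3-treated WT cells, 4.59 in untreated Arhgef2-/- cells and 4.16 in AP3-treated Arhgef2-/- cells. Its level was lower in both Arhgef2-/- groups, with log2 ratios of -2.95 untreated and -3.18 with AP3, and the intervals of the genotypes did not overlap. Log2 ratios throughout are of FPKM + 1, a scale that understates the change of genes at low level, and a gene was called where its ratio was over 1 or under -1 or, as a separate call, where the 95% intervals of both groups did not overlap. All ratios were read against a background of 11397 genes with an accepted Cuffdiff status in all 4 groups and at least 1 FPKM in a group.

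The label of the cells was checked against marker genes. All 11 dendritic cell markers were measured, with a summed level of 6139 FPKM in untreated WT, 7964 in AP3-treated WT, 5165 in untreated Arhgef2-/- and 5701 in AP3-treated Arhgef2-/- cells. Cd74, the invariant chain of MHC class II, was the most abundant of them, and Flt3, the receptor of a dendritic cell growth factor, was the lowest at 2.10, 1.07, 2.63 and 2.18 FPKM in the same order of groups. Dendritic cell markers were thus present in every group, beside strong neutrophil transcripts that are given after the genotype comparisons.

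The 79 genes were expressed at a high level. Their median was 1118 FPKM in untreated WT cells, 1240.3 in AP3-treated WT cells, 1074 in untreated Arhgef2-/- cells and 1081 in AP3-treated Arhgef2-/- cells, against a background median of 12.3, 12.5, 12.3 and 12.4. Together they held 14.4%, 13.4%, 14.2% and 13.7% of all FPKM in these groups, or 15.7%, 15.1%, 15.8% and 15.3% with 783 small RNA genes left out of the total. The share was thus lowest in AP3-treated WT cells by either total, although the summed FPKM of the genes was highest there (87867, 99379.7, 85219 and 84783 FPKM).

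Small subunit genes had a higher median than large subunit genes in each group. The small subunit medians were 1277, 1502, 1247 and 1269.8 FPKM in untreated WT, AP3-treated WT, untreated Arhgef2-/- and AP3-treated Arhgef2-/- cells, and the large subunit medians were 1041, 1155, 1005 and 1004 FPKM. With more genes, the large subunit still held more FPKM in sum, and the ratio of its sum to that of the small subunit was 1.27, 1.25, 1.24 and 1.24. The balance of the subunits therefore differed little among the groups.

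**Figure D1:**
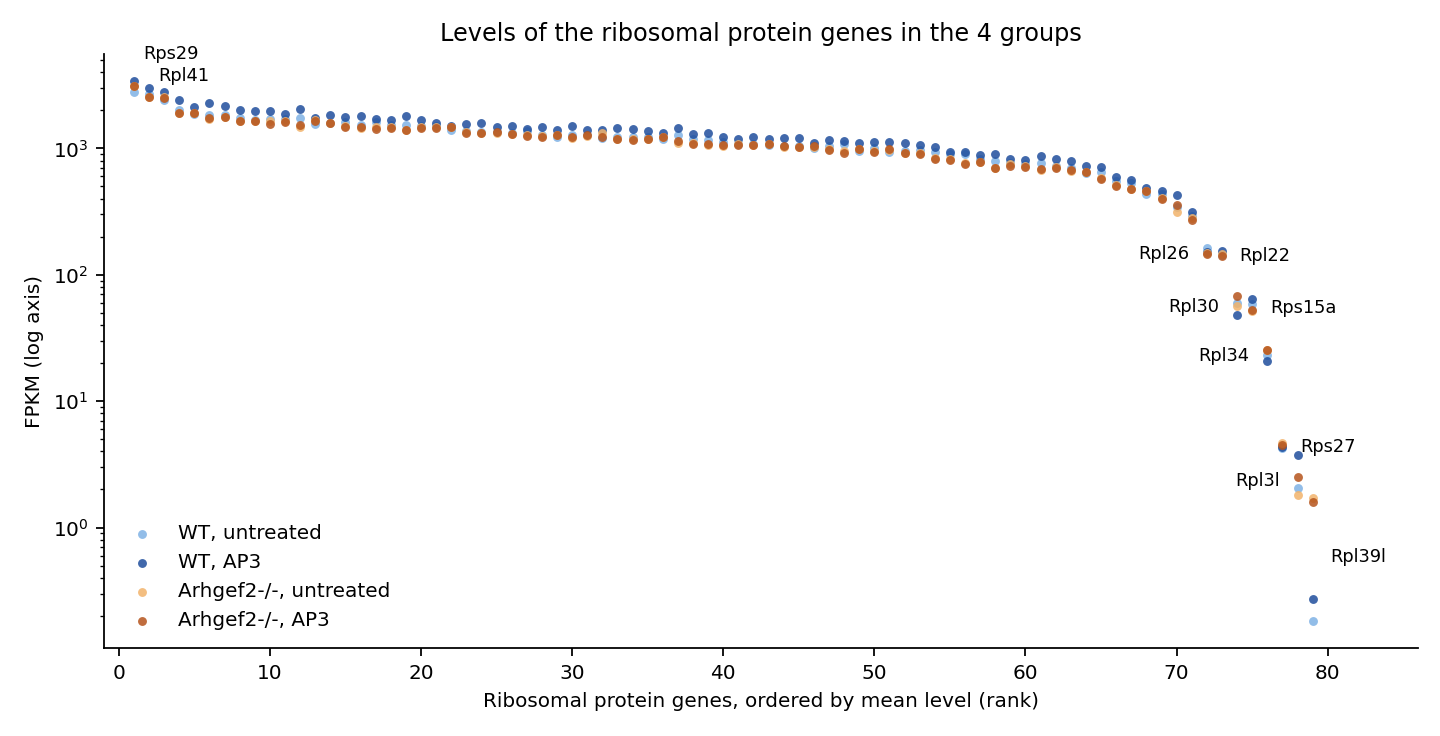
FPKM on a log axis of the 79 ribosomal protein genes, ordered by mean level from rank 1 on the x axis, with 1 point per group. Most genes lie near 1000 FPKM (median 1118 in untreated WT cells), 8 named genes have a mean under 200 FPKM, and Rpl39l is the only one under 1 FPKM in WT cells.

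The most abundant gene was Rps29, a small protein of the small subunit, at chr12:69157721-69159186 (GRCm38). It stood at 2817 FPKM in untreated WT, 3408 in AP3-treated WT, 3123 in untreated Arhgef2-/- and 3141 in AP3-treated Arhgef2-/- cells. Next came Rpl41, a very short basic protein of the large subunit, with 2693, 3009.8, 2560.0 and 2548 FPKM, and Rplp1, an acidic protein of the stalk that recruits translation factors, with 2398, 2774.5, 2554 and 2522 FPKM. Each of these was highest in AP3-treated WT cells as deposited.

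Rpl23a, which lies at the exit of the peptide tunnel, stood at 2028, 2397, 1901 and 1923 FPKM in untreated WT, AP3-treated WT, untreated Arhgef2-/- and AP3-treated Arhgef2-/- cells. Rps12 of the small subunit had 1879, 2113, 1903 and 1912 FPKM, and Rpl10, which joins the large subunit late in its assembly, had 1837, 2279, 1722 and 1749.9 FPKM. As deposited, AP3-treated WT cells again had the highest value, as they did for 74 of the 79 genes (93.7%) against 39.4% of background genes, but with each group scaled to a common sum of FPKM they had the highest value for only 3 of the 79 (3.80%, background 17.0%) and the lowest for 49 (62.03%), a share near that of the background (62.4%). AP3-treated Arhgef2-/- cells had the lowest value for 40 of the 79 genes (50.6%) as deposited, against 19.6% of background genes, and for 25 (31.6%, background 10.6%) after that scaling.

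The 6 lowest genes were Rpl39l, Rpl3l, Rps27, Rpl34, Rps15a and Rpl30. Rps27 was listed at 4.25, 4.36, 4.68 and 4.48 FPKM in untreated WT, AP3-treated WT, untreated Arhgef2-/- and AP3-treated Arhgef2-/- cells, Rpl34 at 23.2, 20.7, 25.3 and 25.4 FPKM, and Rpl30 at 60.2, 48.1, 56.3 and 67.9 FPKM. These are core proteins of the ribosome, and their listed values lay far under the median of their subunit. Rps15a, also a core protein, stood at 58.6, 64.1, 51.3 and 52.8 FPKM.

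Many of the 79 genes share their exact locus with other listed genes, such as Rps15 with 46 and Rpl13a with 5. For 7 of them a gene with another symbol at that locus also shares stretches of 35 bases, the read length. For Rpl32, Rpl35 and Rpl5 the other gene (Cand2, Wdr38 and Fam69a) had 0.276, 0 and 21.6 FPKM in untreated WT cells, far under the ribosomal protein gene, and for 4 core genes it held the larger value. At chr3:90212666-90213648, where Rps27 lies, Gm9846 (now named Rps27rt, and annotated by GENCODE on chromosome 9) was listed, with the status LOWDATA that keeps a gene out of the background, at 2142, 2565, 2191 and 2220.0 FPKM in untreated WT, AP3-treated WT, untreated Arhgef2-/- and AP3-treated Arhgef2-/- cells. At the locus of Rpl34, Rpl34-ps1 had 1271, 1536, 1244 and 1278 FPKM. At that of Rpl30, Gm12191 had 1113, 1319.8, 1119.9 and 1083 FPKM. These values lay within the range of the other core genes, and GENCODE places Rpl34-ps1 on chromosome 6 and Gm12191 on chromosome 11, away from the locus listed. How much of the signal at each locus belongs to the ribosomal protein gene cannot be told apart.

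The fourth pair was Rpl26, at 163, 151, 147 and 145 FPKM, and Gm15772 at the same locus (annotated on chromosome 5), also with the status LOWDATA, at 1528, 1724, 1417 and 1375 FPKM. The annotated transcripts share sequence with the gene listed at the same locus, which held 98.7% of all stretches of 35 bases (the read length) in Rps27, 67.9% in Rpl26, 56.1% in Rpl34 and 52.1% in Rpl30. Counting transcripts of any other gene, these shares were 98.7%, 75.2%, 59.4% and 82.6%. How reads were divided within such pairs, and which of the symbols the larger value belongs to, was not tested, so the low entries of Rps27, Rpl34, Rpl30 and Rpl26 do not show that these genes are low. Rps15a had 56.3% of its stretches in other genes. Of its stretches 38.8% lay in Rps15a-ps6, listed at 26.0, 31.9, 25.7 and 25.3 FPKM in the same order of groups. Its low entry is thus uncertain too. Across all 79 genes the median share of stretches found in any other gene was 62.2%, from 0 in Rpl3l to 98.7% in Rps27, with 7 genes over 90% and 6 under 10%, so values of single ribosomal protein genes are uncertain.

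**Figure D2:**
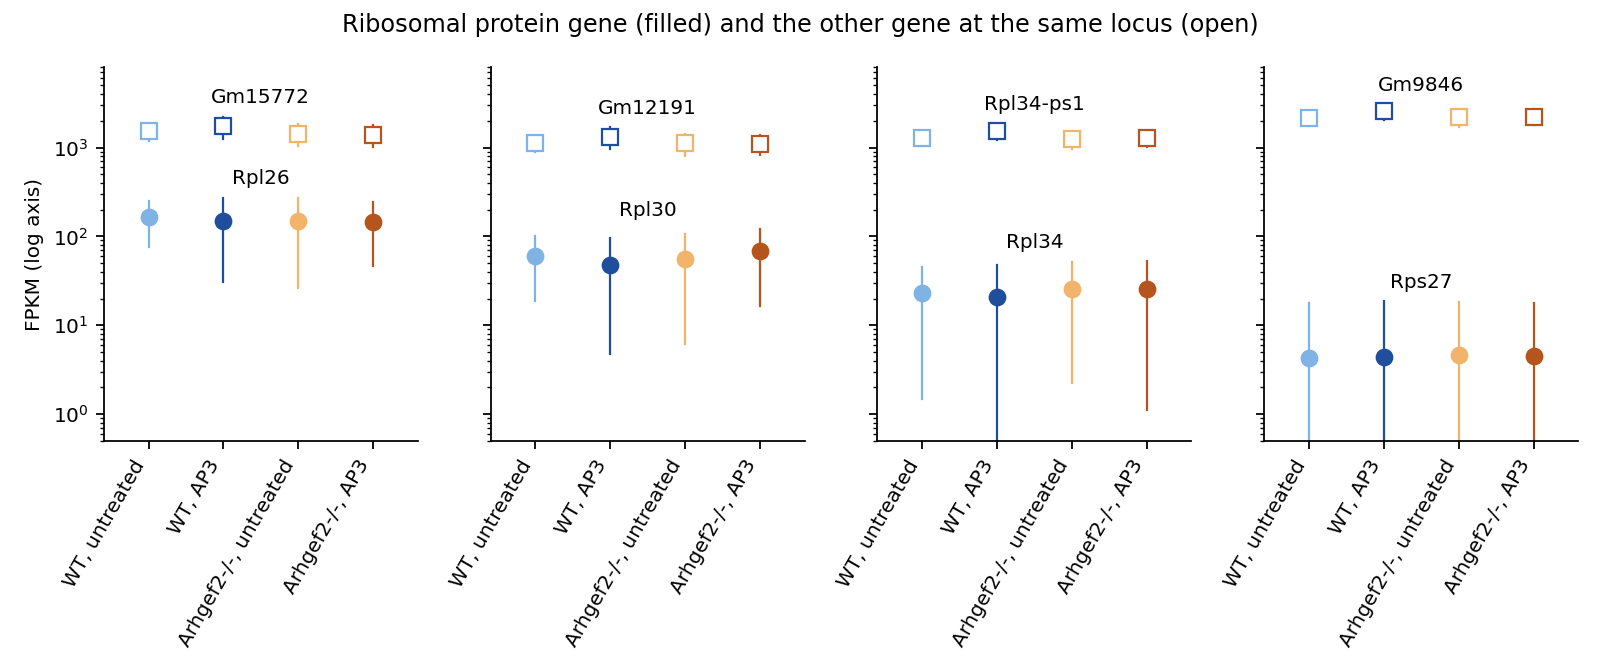
FPKM on a log axis of 4 ribosomal protein genes (filled circles) and of the other gene listed at the same locus (open squares, of which Gm9846 and Gm15772 have the status LOWDATA) in the 4 groups, with vertical lines for the 95% Cuffdiff intervals, whose lower ends run off the axis where they reach 0. The other gene has the larger listed value at each locus, as at Rps27 (4.25 FPKM) and Gm9846 (2142 FPKM) in untreated WT cells.

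The first comparison asked how WT cells responded to AP3. As deposited, 76 of the 79 ribosomal protein genes were higher with AP3 (background 50.1%), with a median log2 ratio of 0.17 against 0.00 for the background, but with each group scaled to a common sum of FPKM the median was -0.11 and only 4 genes were higher (background 26.1%). That scaling moved the background median to -0.25. Relative to the background the genes were higher by 0.17 as deposited and by 0.14 after scaling. A common sum shifts every ratio of a comparison by nearly the same amount, so this distance could hardly change and is no separate check. The difference was small and no gene was called: 0 of 79 had a ratio over 1 or under -1 (background 4.94%) and 0 had intervals that did not overlap (background 16.8%).

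Small and large subunit genes differed little in this response. The median log2 ratio was 0.17 over the small subunit, with 31 of 31 genes higher, and 0.17 over the large subunit, with 45 of 48 genes higher, and both medians turned negative (-0.11 each) after scaling to a common sum. The 3 genes that were lower as deposited were Rpl30 (-0.32), Rpl34 (-0.16) and Rpl26 (-0.12), each from a pair that shares a locus. Their partners Gm12191, Rpl34-ps1 and Gm15772 had ratios of 0.25, 0.27 and 0.17, and with the sum of both values of a pair used for these 4 loci, an alternative chosen after seeing the data, 79 of 79 genes were higher as deposited.

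The largest ratios among genes with at least 5 FPKM in a group were those of Rps27l, Rpl10 and Rps29. Rps27l, a paralog of Rps27 and a p53 target, stood at 342 FPKM untreated and 431 with AP3 in WT cells (log2 ratio 0.34). Rpl10 had 1837 FPKM untreated and 2279 with AP3 (0.31), and Rps29 had 2817 and 3408 FPKM (0.27). Their intervals overlapped between the groups, but the values of Rps27l and Rps29 lay above their own intervals. That of Rps27l ran from 191 to 308 FPKM untreated and from 242 to 389 FPKM with AP3, so the overlap says little about these ratios.

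The same comparison in Arhgef2-/- cells showed almost no difference. The median log2 ratio of AP3-treated to untreated Arhgef2-/- cells was -0.01, the same as the background median of -0.01, with 49 of 79 genes lower (background 52.3%). It was -0.05 after scaling to a common sum, beside a background of -0.05, with 74 genes lower (background 60.9%). No gene was called by its ratio (0 of 79, background 1.08%) or by its intervals (0 of 79, background 3.7%).

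Rpl38, a large subunit protein known from skeletal patterning, was lowest in this comparison, at 1314 FPKM untreated and 1233 with AP3 (-0.09). Rpl14 had 756 and 721 FPKM (-0.07) and Rpl28 had 1638 and 1569 FPKM (-0.06). At the other end, among genes with at least 5 FPKM in a group, were Rpl30 (56.3 and 67.9 FPKM, 0.27), Rps27l (311 and 356 FPKM, 0.19) and Rpl17 (1100.1 and 1138 FPKM, 0.05). Rps27l was thus higher with AP3 in both genotypes as deposited, and whether the ratios differ was not tested.

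Untreated Arhgef2-/- and WT cells differed little. As deposited, 60 of 79 genes were lower in Arhgef2-/- cells (background 52.1%) with a median log2 ratio of -0.06 against -0.01 for the background, with 19 genes higher. After scaling to a common sum the median was -0.03 with 28 genes higher (background 52.6%), beside a background median of 0.01, and with small RNA genes left out of the sum it was -0.01 with 37 genes higher (background 57.2%), beside 0.04. Relative to the background the genes were lower, with differences of -0.05, -0.05 and -0.04 on these scales, which could hardly differ by construction. Rpl3, next to the site of peptide bond formation, stood at 903 FPKM in WT and 762 in Arhgef2-/- cells (-0.24), Rps20 at 1737 and 1488 FPKM (-0.22), and Rpl17 at 1268 and 1100.1 FPKM (-0.20). Rps29 (0.15), Rpl34 (0.12) and Rpl38 (0.11) were the highest among genes with at least 5 FPKM.

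With AP3, the difference between genotypes was larger. As deposited, 75 of 79 genes were lower in Arhgef2-/- cells (background 52.9%) with a median log2 ratio of -0.22 against -0.03 for the background, but after scaling to a common sum the median was 0.04, with 50 genes higher (background 72.8%), beside a background of 0.21. Relative to the background the genes were lower, with differences of -0.20 as deposited and -0.17 after scaling, a distance that such a scaling could hardly change. The lowest among genes with at least 5 FPKM were Rps20 (2058 FPKM in WT and 1523 in Arhgef2-/- cells, -0.43), Rps4x, an X-linked small subunit gene (1817 and 1391 FPKM, -0.39), and Rpl10 (2279 and 1749.9 FPKM, -0.38). The highest were Rpl30 (0.49) and Rpl34 (0.28), which share loci, and Rps2 (1514 and 1476 FPKM, -0.04).

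Some neutrophil markers differed with genotype in both comparisons, and fewer cells of a type cannot be told apart from less RNA per cell. Of 8 neutrophil markers 7 were measured, with Ly6g not analysed here, and their summed level was 30747 FPKM in untreated WT, 36175 in AP3-treated WT, 21177 in untreated Arhgef2-/- and 21613 in AP3-treated Arhgef2-/- cells. Of the 7, 4 were lower and 3 higher in Arhgef2-/- than in WT cells in either comparison (background 52.1% lower untreated and 52.9% with AP3). S100a8 was the most abundant, at 19401, 23110.3, 10856 and 11199 FPKM (-0.84 between untreated and -1.05 between treated genotypes), though its value lay above its own interval, with an upper bound of 16474 FPKM in untreated WT cells. S100a9, the next, differed less, at 10678, 12394, 10004 and 10130 FPKM (-0.09 and -0.29, intervals overlapping). Camp, a protein of late granules, stood at 189, 202, 15.0 and 18.7 FPKM (-3.57 and -3.37) and Ltf at 399, 402, 145 and 129 FPKM (-1.46 and -1.63). In each comparison 4 of the 7 had intervals apart, 3 lower and 1 higher (background 4.74% untreated and 13.7% with AP3). The 3 lower were S100a8, Camp and Ltf. Mpo and Elane of early granules were higher in Arhgef2-/- cells (Mpo 26.4, 21.7, 63.1 and 59.0 FPKM, with ratios of 1.23 and 1.40). The part of the neutrophil markers in the ribosomal protein values was not tested.

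The gene called between genotypes was Rpl39l, a paralog of Rpl39 known from testis. It stood at 0.181 FPKM in untreated WT, 0.272 in AP3-treated WT, 1.72 in untreated Arhgef2-/- and 1.61 in AP3-treated Arhgef2-/- cells. The ratio of Arhgef2-/- to WT was 1.20 untreated (1 of 79 genes called, background 1.88%; intervals that did not overlap, 1 of 79, background 4.74%) and 1.04 with AP3 (1 of 79, background 4.06%; intervals, 1 of 79, background 13.7%). Rpl39l passed the level threshold only through the Arhgef2-/- groups, so it had to differ, and nothing is drawn from its call.

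The effect of AP3 in WT minus that in Arhgef2-/- cells was over 0 for 76 of 79 genes (background 51.6%) as deposited, with a median difference of 0.17 against 0.01 for the background, and it turned to -0.06 after scaling to a common sum, with 9 genes over 0 (background 24.0%) and a background median of -0.20. Relative to the background it was 0.16 as deposited and 0.14 after scaling, a distance that such a scaling could hardly change. No gene had a difference over 1 or under -1 (0 of 79, background 1.9%). Among genes with at least 5 FPKM in a group, Rpl38 (0.29), Rpl10 (0.29) and Rpl28 (0.27) had the highest differences, and Rpl30 (-0.58), Rpl34 (-0.16) and Rpl26 (-0.10), which share loci, the lowest. The comparisons share groups, and AP3-treated WT cells enter each of those with a larger median.

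**Figure D3:**
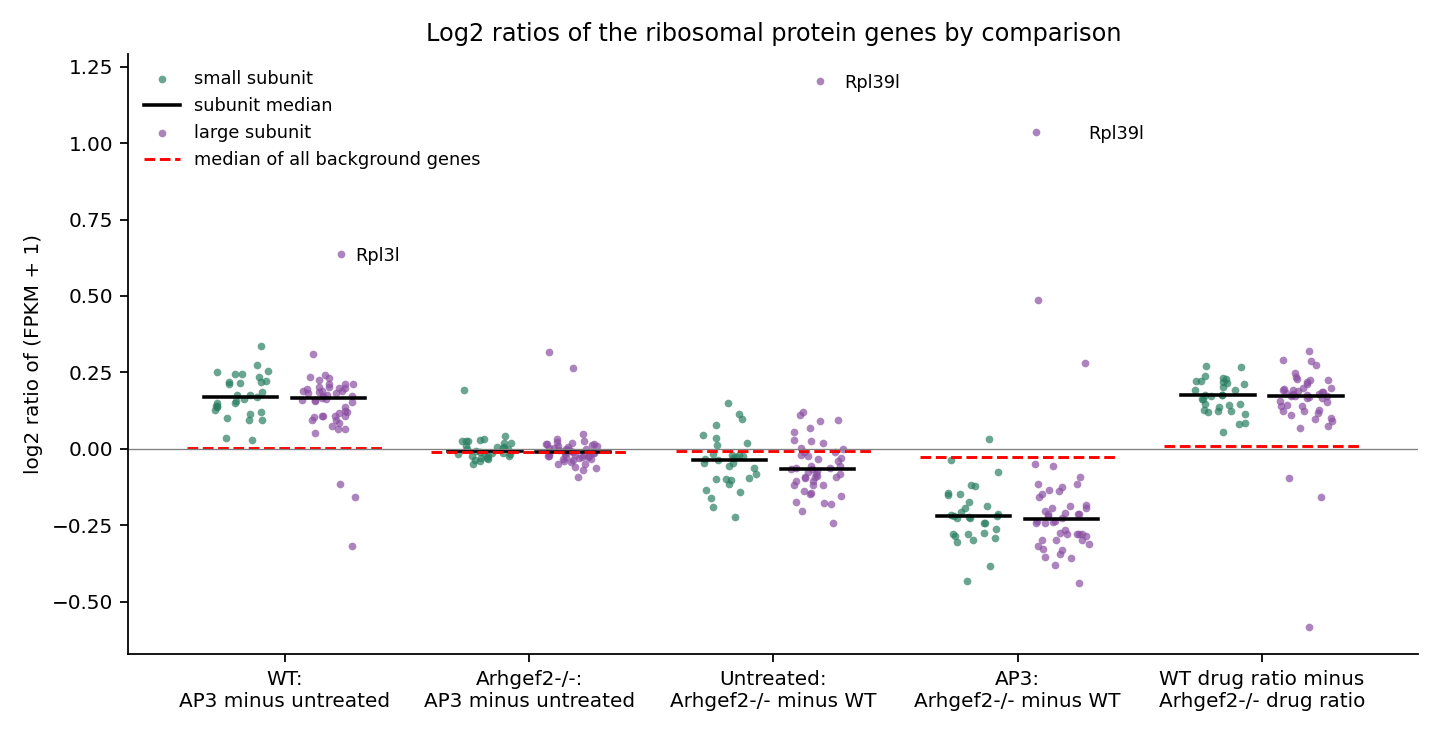
Log2 ratios of FPKM + 1 as deposited (y axis) for the 31 small and 48 large subunit genes in 5 comparisons (x axis), with 1 point per gene, black lines for the subunit medians and red dashed lines for the median of 11397 background genes. The medians lie at 0.17 for AP3 in WT and -0.01 for AP3 in Arhgef2-/- cells, and the first turns negative (-0.11) after scaling to a common sum.

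The total FPKM differed between groups, and the scalings to a common sum divide by it. It was 609360.0 in untreated WT, 739523 in AP3-treated WT, 599331 in untreated Arhgef2-/- and 617423 in AP3-treated Arhgef2-/- cells, and AP3-treated WT cells lay above untreated WT cells by a log2 ratio of 0.28. Small RNA genes held 8.34%, 10.9%, 9.91% and 9.99% of the total, and the log2 ratio was 0.24 without them. A rescaling on the median ratio of all background genes, in contrast, left the ribosomal protein medians at 0.16 for AP3 in WT and -0.21 for genotype with AP3.

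**Figure D4:**
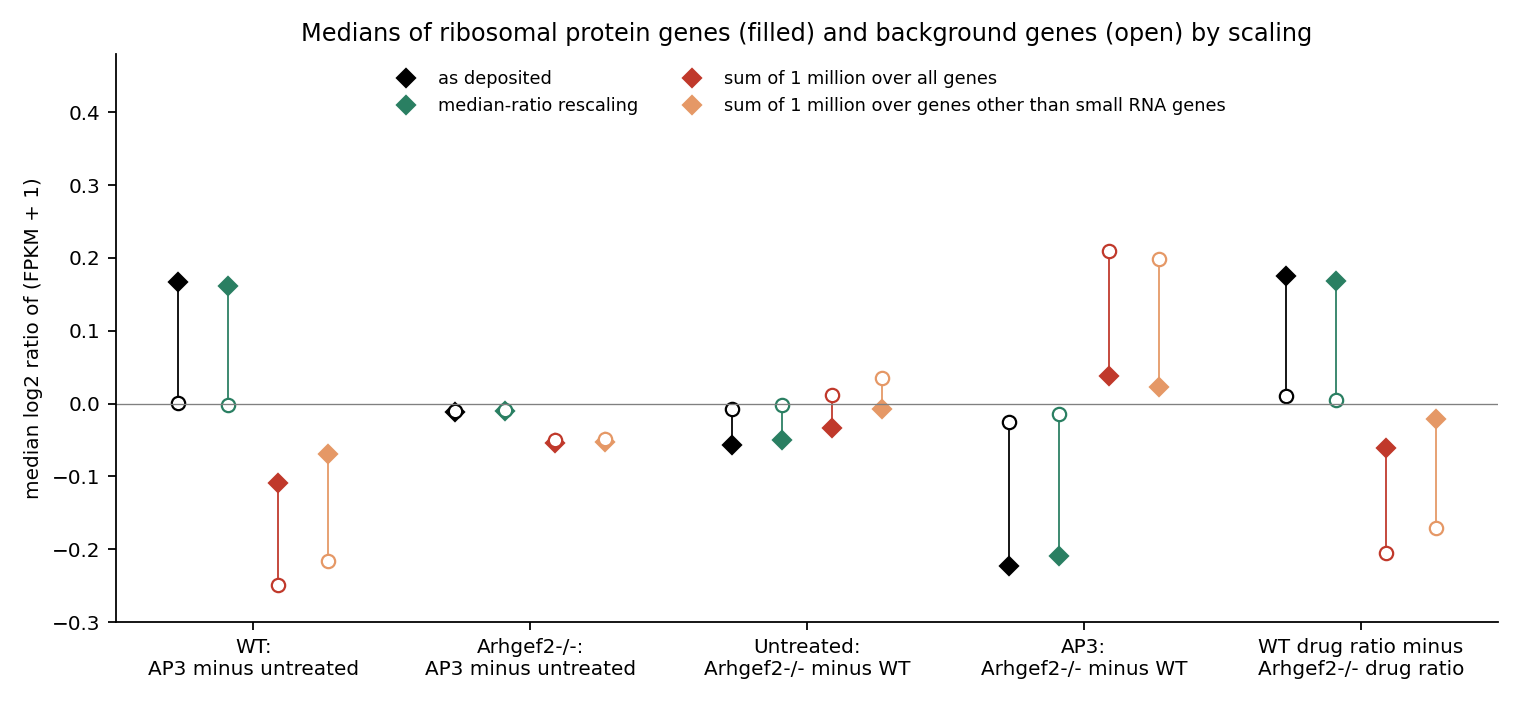
Median log2 ratio of FPKM + 1 (y axis) of the ribosomal protein genes (filled diamonds) and of the background genes (open circles) in 5 comparisons (x axis), with 1 colour per scaling of the groups. For AP3 in WT cells both medians shift down together with scaling to a common sum, from 0.17 and 0.00 to -0.11 and -0.25. The sign changes while the distance, which such a scaling can hardly alter, stays between 0.14 and 0.17.

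The response also went with level, taken as the mean over the 4 groups, for other genes as well. The value of AP3-treated WT cells enters both that mean and the ratio, so level and ratio are partly linked by construction. Among the 100 other genes with a mean of at least 500 FPKM, small RNA genes left out, 82 were higher with AP3 in WT cells as deposited, with a median log2 ratio of 0.25 that became -0.03 after scaling to a common sum. The 67 ribosomal protein genes at that level had a median of 0.17, with 67 of 67 higher, and -0.10 after that scaling. Their median was thus under that of other abundant genes, by a difference of -0.08.

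At lower levels the medians of other genes were 0.16 for 680 genes between 100 and 500 FPKM, 0.05 for 5561 genes between 10 and 100 FPKM and -0.09 for 4884 genes under 10 FPKM. In the genotype comparison with AP3, abundant other genes had a median of -0.28 and abundant ribosomal protein genes one of -0.23 as deposited, against -0.02 and 0.03 after scaling. What made the ratio go with level was not tested. For AP3 in WT and genotype with AP3, the shift of the ribosomal protein genes away from the whole background was therefore shared by other genes of high level. Between untreated genotypes abundant ribosomal protein genes had a median of -0.06 and abundant other genes one of -0.03. For AP3 in Arhgef2-/- cells these medians were -0.01 and 0.03.

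**Figure D5:**
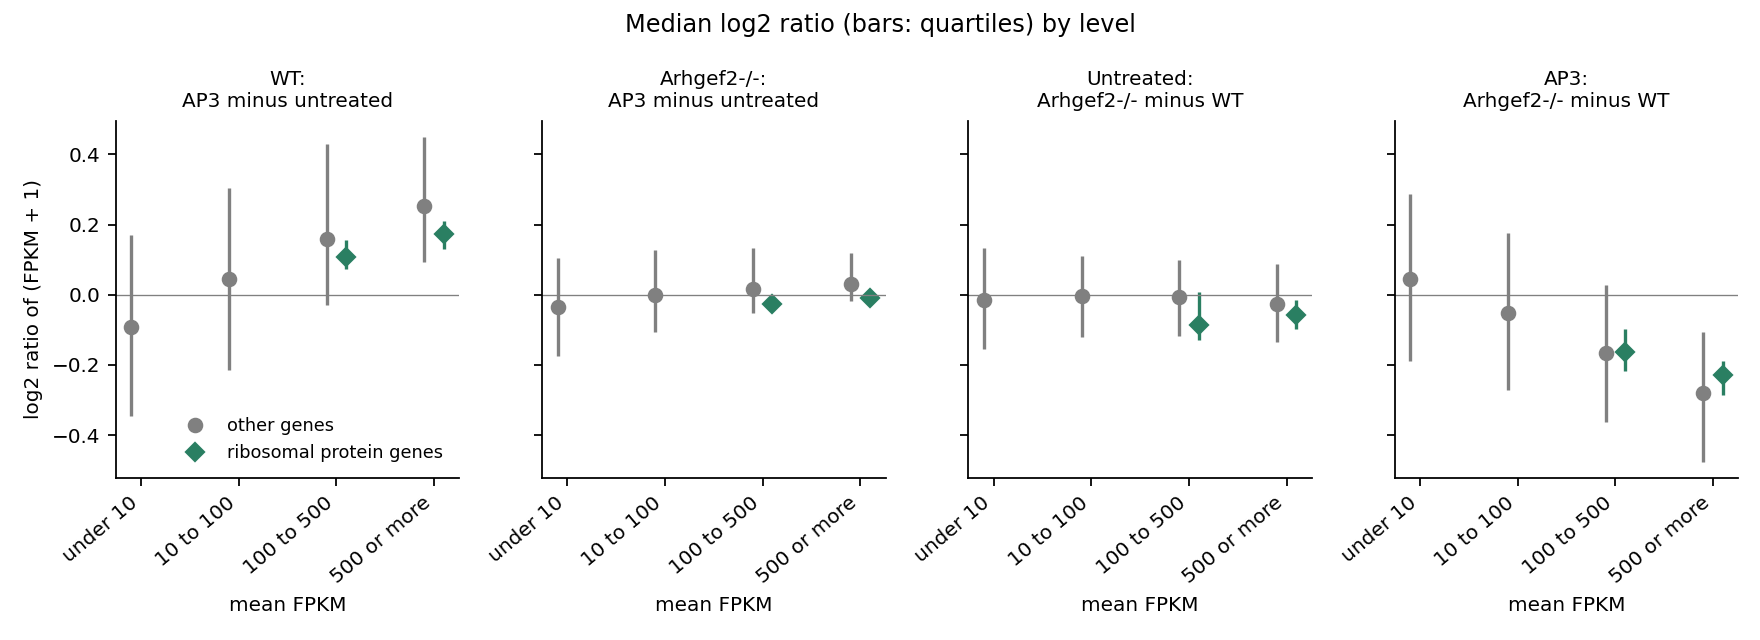
Median log2 ratio of FPKM + 1 as deposited (y axis, vertical lines from the lower to the upper quartile) by mean FPKM (x axis) for other genes (grey circles) and ribosomal protein genes (green diamonds, drawn from 100 FPKM up), in 4 comparisons. For AP3 in WT cells the median of other genes goes from -0.09 under 10 FPKM to 0.25 at 500 FPKM or more, where the ribosomal protein genes lie at 0.17, and after scaling to a common sum the last pair is -0.03 and -0.10.

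The genes varied little among themselves. The standard deviation of their log2 ratios was 0.11 for AP3 in WT, 0.06 for AP3 in Arhgef2-/- cells, 0.16 between untreated genotypes and 0.19 between treated genotypes, against 0.58, 0.48, 0.49 and 0.59 over the background. The values between genotypes include Rpl39l, and over the 67 genes with a mean of at least 500 FPKM the standard deviations were 0.06, 0.03, 0.08 and 0.08, against 0.49, 0.15, 0.44 and 0.52 over the 100 other genes at that level. Across the 79 genes, which are not independent replicates and share libraries, the ratio for AP3 in WT went with mean level with a Pearson coefficient of 0.19 and a Spearman coefficient of 0.44, and with transcript length with 0.15 and 0.03. Over 11225 other background genes the coefficients with level were 0.18 and 0.20. In both sets the mean level includes the AP3-treated WT value that is also in the ratio. Between genotypes, longer transcripts had lower ratios, with a Pearson coefficient of -0.25 and a Spearman coefficient of -0.36 untreated, and -0.28 and -0.41 with AP3 (n = 79).

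Elongation factors dock on the P-stalk, which is built of Rplp0, Rplp1 and Rplp2. Rplp0, the base of the stalk, stood at 1598 FPKM in untreated WT, 1837 in AP3-treated WT, 1601 in untreated Arhgef2-/- and 1587 in AP3-treated Arhgef2-/- cells, and Rplp2 at 1192, 1329 and, in Arhgef2-/- cells, 1238 and 1228 FPKM. With Rplp1, given above, their ratios for AP3 in WT were 0.20, 0.16 and 0.21 as deposited and had a median of -0.08 after scaling to a common sum. Between untreated genotypes the ratios of Rplp0, Rplp2 and Rplp1 were 0.002, 0.05 and 0.09. None of these ratios was the highest or lowest of the 79, no intervals were apart, and the stalk genes were not tested against the others.

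Of the 79 genes, 10 encode ribosomal proteins with a known role outside the ribosome, so their values are already part of the medians above. All 10 were higher with AP3 in WT cells as deposited (background 50.1%; median 0.16, or -0.12 after scaling to a common sum), and all 10 were lower in Arhgef2-/- than in WT cells with AP3 (background 52.9%; median -0.24, or 0.02 after scaling). Rpl5 and Rpl11, which bind Mdm2 and so stabilise p53, stood at 649 and 1383 FPKM in untreated WT and 714 and 1434 FPKM in AP3-treated WT cells, and at 583 and 1286 FPKM and 569 and 1252 FPKM in the corresponding Arhgef2-/- cells. Rpl23, which also binds Mdm2, stood at 962, 1097, 919 and 928 FPKM in untreated WT, AP3-treated WT, untreated Arhgef2-/- and AP3-treated Arhgef2-/- cells.

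Rps3, which takes part in DNA repair and in NF-kB complexes, had 554, 591, 516 and 505 FPKM in the same order, and Rpl13a, which silences inflammatory mRNAs when released from the ribosome, had 1081, 1138, 957 and 926 FPKM. Rps6, the substrate of S6 kinases, stood at 945, 1029, 846 and 832 FPKM. Rpsa, also known as a laminin receptor, had 1354, 1579, 1334 and 1334 FPKM, and Rps19, mutated in Diamond-Blackfan anaemia, had 941, 1118, 963 and 981 FPKM. The highest value of each lay in AP3-treated WT cells as deposited, and no intervals were apart.

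Variant proteins, paralogs that can replace a core protein, were less uniform. Of 8 variant genes 7 were listed in the data (Rps4l was not), and 6 of these passed the filter on low values. Rpl3l, a heart and muscle paralog of Rpl3, stood at 2.05, 3.74, 1.80 and 2.49 FPKM in untreated WT, AP3-treated WT, untreated Arhgef2-/- and AP3-treated Arhgef2-/- cells, with AP3 ratios of 0.64 in WT and 0.32 in Arhgef2-/- cells and overlapping intervals. Rpl22l1, a paralog of Rpl22, had 109.6, 119.5, 81.4 and 77.7 FPKM and was lower in Arhgef2-/- cells by ratios of -0.42 untreated and -0.62 with AP3. Rpl36al, at 505, 502, 505 and 484 FPKM, and Rpl7l1, at 51.6, 45.0, 57.4 and 54.0 FPKM, had AP3 ratios in WT of -0.01 and -0.19. Over the 6 genes the median for AP3 in WT was 0.12, and -0.05 after scaling to a common sum.

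Cuffdiff gave some ribosomal protein genes a value outside its own interval. This held for 13 of 79 genes in untreated WT (16.5%) against 0.983% of background genes, and for 14, 13 and 14 genes in AP3-treated WT, untreated Arhgef2-/- and AP3-treated Arhgef2-/- cells, each value lying above the upper bound. Rps29, at 2817 FPKM in untreated WT cells, had an interval from 1335 to 2151 FPKM. By the median the 14 genes had shorter transcripts than the other 65, at 496.5 and 775 bases, though the longest had 3706 bases among the 14 and 2045 among the 65. Without the genes concerned the median for AP3 in WT was 0.16.

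Genes of the cytoplasmic ribosome that the symbols leave out were mixed. Of 7 measured, 5 were higher with AP3 in WT cells as deposited (background 50.1%), and 0 after scaling to a common sum. The other 2 were the paralogs Rpl7l1 (-0.19) and Rpl36al (-0.01), and Rpl7l1 was higher in Arhgef2-/- than in WT cells with AP3 (0.26). Fau, a fusion that yields a small subunit protein, stood at 1553, 1852, 1441 and 1451 FPKM in untreated WT, AP3-treated WT, untreated Arhgef2-/- and AP3-treated Arhgef2-/- cells. Rps3a1, a small subunit protein, had 1470.3, 1667, 1368 and 1349.7 FPKM, and Gnb2l1, the scaffold now named Rack1, had 1099, 1256, 1034 and 1024 FPKM. These 3 were highest in AP3-treated WT cells as deposited.

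Other TOP genes, mostly translation factors, were spread over both directions with AP3 in WT cells. Of 20, 12 were higher and 8 lower with AP3 in WT cells as deposited (background 50.1% higher), with a median of 0.08 that became -0.20 after scaling to a common sum, and 0 of 20 were past 1 (background 4.94%) or had intervals apart (background 16.8%). Between genotypes 14 of 20 were lower in untreated Arhgef2-/- cells as deposited, with a median of -0.08 (background 52.1% lower). With AP3, 15 of 20 were lower (background 52.9%), with a median of -0.21 that became 0.05 after scaling to a common sum. The 1 gene with intervals apart with AP3 was higher in Arhgef2-/- cells (background 13.7% apart). As deposited, Eef1a1, which brings tRNAs to the ribosome, had 4484 FPKM untreated and 5346 with AP3 in WT cells (0.25), Tpt1 had 2646 and 3461 FPKM (0.39), and Eef2, the translocation factor, had 859 and 1101 FPKM (0.36). Npm1, a nucleolar chaperone, had 508 and 457 FPKM (-0.15).

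By their medians under each of the 4 scalings, genes that build ribosomes were lower with AP3 than without it in WT cells, and higher in Arhgef2-/- than in WT cells both untreated and with AP3. Of 34 genes of ribosome biogenesis and RNA polymerase I, 32 were lower with AP3 in WT cells as deposited (background 49.6%) with a median log2 ratio of -0.43. By the ratio 1 of 34 was called, under -1 (background 4.94%), and 10 of 34 had intervals that did not overlap, all lower (background 16.8%). Scaling to a common sum moved the background median to -0.25 and the background genes under -1 from 146 to 536. The size of the biogenesis median and its count under -1 after scaling are not given here. In Arhgef2-/- cells the median for AP3 was -0.04 with 25 lower (background 52.3%) and 0 of 34 with intervals apart (background 3.7%). Between genotypes, 33 of 34 were higher in untreated Arhgef2-/- cells (background 47.7%; median 0.36), with 0 of 34 over 1 (background 1.88%) and 2 with intervals apart (background 4.74%). With AP3 the median was 0.81, with 11 of 34 over 1 (background 4.06%) and 21 with intervals apart (background 13.7%).

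Markers moved with these genes in part. As deposited, the 6 proliferation markers were all lower with AP3 in WT cells (median -0.33, background 49.6% lower). All were higher in Arhgef2-/- than in WT cells with AP3 (0.18, background 46.9% higher), but all lower between untreated genotypes (-0.14, background 52.1% lower). Of 6 macrophage markers 5 were lower with AP3 in WT cells (median -0.42), all 6 were higher in Arhgef2-/- cells with AP3 (0.46) and 5 were higher untreated (0.07, background 47.7% higher). Scaling to a common sum moved the background medians to -0.25 for AP3 in WT and 0.21 for genotype with AP3. Marker medians after that scaling are not given here. Of 7 neutrophil markers 3 were lower and 4 higher with AP3 in WT cells, the lowest being Prtn3 (-0.37). In both genotype comparisons 3 were higher and 4 lower in Arhgef2-/- cells. Mpo had the highest ratio, 1.23 untreated and 1.40 with AP3, and Camp the lowest, -3.57 and -3.37. Summed levels of the proliferation and macrophage markers are given below. The part of all these markers in the values of the biogenesis genes was not tested.

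Nop56, a protein of the snoRNA particles that modify ribosomal RNA, stood at 60.6, 38.2, 91.2 and 84.1 FPKM in untreated WT, AP3-treated WT, untreated Arhgef2-/- and AP3-treated Arhgef2-/- cells, and its partner Nop58 at 57.6, 44.6, 87.4 and 91.4 FPKM. Ncl, nucleolin, had 89.1, 70.2, 126.9 and 122.8 FPKM, and Fbl, the methyltransferase fibrillarin, had 155.5, 137.1, 202.3 and 197.1 FPKM. The lowest value of each lay in AP3-treated WT cells, where the ribosomal protein genes had their highest as deposited.

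Mitochondrial ribosomal protein genes serve a separate ribosome and lie at lower levels, with a summed 3065 FPKM over 76 genes in untreated WT cells. With AP3, 61 of 76 were lower in WT cells as deposited (background 49.6%; median -0.17, and -0.45 after scaling to a common sum), with 0 past 1 (background 4.94%) and 5 with intervals apart, all lower (background 16.8%). In Arhgef2-/- cells 57 of 76 were lower with AP3 (background 52.3%; median -0.06), with 0 intervals apart (background 3.7%), and 56 of 76 were higher in Arhgef2-/- than in WT cells with AP3 (background 46.9%; median 0.12), with 3 intervals apart (background 13.7%). Scaling to a common sum moved the background share higher with AP3 between genotypes to 72.8%. The values of the mitochondrial genes in that comparison after scaling are not given here. The mitochondrial genes were not compared with the cytoplasmic genes at matched level. The 4 most abundant were Mrps21, Mrpl20, Mrpl33 and Mrpl52, with AP3 ratios in WT of 0.00, 0.10, 0.15 and 0.30. Of 12 regulators of mTOR and of TOP translation, 6 were higher and 6 lower in WT cells (median -0.002, and -0.27 after scaling). Among them Myc, a transcription factor that drives ribosome genes, had 61.7, 49.5, 83.3 and 77.4 FPKM in untreated WT, AP3-treated WT, untreated Arhgef2-/- and AP3-treated Arhgef2-/- cells. Eif4ebp1 and Eif4ebp2, repressors of cap-dependent translation, had AP3 ratios in WT of 0.12 and -0.35, and Larp1, which binds TOP mRNAs, had one of -0.21.

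Macrophage markers were measured for 6 genes (Adgre1 under its older symbol Emr1), with a sum of 226, 173, 269.6 and 243 FPKM in untreated WT, AP3-treated WT, untreated Arhgef2-/- and AP3-treated Arhgef2-/- cells and Cd68 as the most abundant. The 7 T and NK cell markers, 4 of which passed the filter, summed to 19.6, 21.7, 13.7 and 13.8 FPKM, led by Cd8a, with Cd4, Ncr1 and Klrb1c near 0. The 5 B cell markers, 4 of which passed, summed to 16.6, 10.2, 9.38 and 6.56 FPKM, led by Cd79b, with Pax5 near 0. Of the erythroid markers, the globin gene Hbb-b1 stood at 5.82, 10.9, 1.32 and 1.79 FPKM, with Hba-a1, Klf1 and Epor near 0. The 6 proliferation markers summed to 219, 169, 202 and 196 FPKM, led by Top2a. T, B and erythroid transcripts were thus low beside the ribosomal protein genes, and their part in those values was not tested.

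The genes share features that the choice did not use. They lie on 19 chromosomes, with 14 of them on chromosome 7. By the GENCODE annotation 29 of 79 (36.7%) contain small nucleolar RNA genes, 56 in all, against 180 of 10341 protein-coding background genes (1.74%). Rpl4 has the most with 5, and Rpl13a has 4. Host genes of this kind release guides for ribosomal RNA modification from their introns.

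Start sites are shown for a few genes because a TOP sequence is the feature for which this family is known. A window of 30 bases before to 20 bases after the annotated start was taken from RefSeq promoters (GRCm38.p6), with capitals for the C at the start and the run of C and T that follows it. A start of this kind, C followed by 4 bases that are C or T on the sense strand, occurred in 3.01% of the 27025 genes with a promoter. Only 59 of the 79 ribosomal protein genes (74.7%) matched a promoter, under the 80% needed, so a comparison of shares is void. The windows were picked to show such a start, and most of the matched genes did not have it: it was found at an annotated start of 13 of the 59. The match needs the C at the exact annotated base. Rpl27a, with a run of 16 bases of C and T that begins with T, was not counted. The count therefore does not show how many of the genes have a TOP sequence. Rpl14 and Rpl38 had the lowest ratios for AP3 in Arhgef2-/- cells, Rplp2 belongs to the P-stalk, Rps6 has a role outside the ribosome, Rps27 is a core gene with a low entry, and Rpl39l is a variant without such a run.
Rpl14, chr9:120571487-120571536, plus strand: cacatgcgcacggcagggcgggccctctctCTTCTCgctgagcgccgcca
Rpl38, chr11:114668550-114668599, plus strand: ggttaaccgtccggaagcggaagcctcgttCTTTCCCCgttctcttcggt
Rplp2, chr7:141447621-141447670, plus strand: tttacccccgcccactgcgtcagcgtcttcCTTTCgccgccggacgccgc
Rps6, chr4:86857348-86857397, minus strand: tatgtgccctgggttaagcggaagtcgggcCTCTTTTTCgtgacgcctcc
Rps27, chr3:90213629-90213678, minus strand: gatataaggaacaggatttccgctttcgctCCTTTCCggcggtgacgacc
Rpl39l, chr16:10170198-10170247, plus strand: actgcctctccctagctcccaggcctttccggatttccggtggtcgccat
The letters CTTTCC within 20 bases of the start occurred in 2.30% of all genes with a promoter, TTTCC, which is part of it, in 7.25%, and CCGGAA, the core of ETS sites, on either strand of the 300 bases in 16.7%. Rpl38, Rps27 and Rpl39l hold CTTTCC within that distance. These matches describe the windows only.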

How the data were processed

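Polyadenylated RNA (500 ng per library, TruSeq Stranded mRNA) from 8 libraries, 2 in each of 4 groups, was sequenced as paired reads of 35 bases. The authors deposited 1 FPKM value per gene and group with its 95% bounds and a status, made with Cuffdiff, version 1.05 per the submitters' processing notes, on GRCm38 coordinates. The FPKM values and bounds were used as deposited, read counts per library were not used here, and the untreated and treated WT columns were assigned from the group labels by elimination. The table of 23356 genes had 107 with a status other than OK in a group, and these stayed out of the background. The 79 genes and all lists were chosen with earlier results of these data known.

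For each of 5 comparisons (AP3 in WT, AP3 in Arhgef2-/-, genotype untreated, genotype with AP3, and the difference of the AP3 effects) the log2 ratio of FPKM + 1 (pseudocount 1) was computed per gene. The background was every gene with status OK and at least 1 FPKM in a group (11397 genes). With 1 pooled value per group no test across samples was made. Named genes were Arhgef2, the 6 highest and 6 lowest by mean log2 level, the 3 highest and 3 lowest by ratio in each comparison among those with at least 5 FPKM in a group, all variant paralogs, the P-stalk, the proteins with roles outside the ribosome, and up to 4 of the highest level in each other list; Flt3, Mpo and Elane, the markers near 0 and the genes sharing a locus were chosen after their values were seen. Small RNA genes were those with small RNA symbols or a length under 200 bases. Stretches of 35 bases were compared among GENCODE transcripts. Promoters came from RefSeq (GRCm38.p6). Alternatives were other pseudocounts, filters, scalings and subsets of the genes. Python 3.11.15, pandas 2.3.3, numpy 2.4.6, scipy 1.17.1 and matplotlib 3.10.9 were used, and the calculations were tested on simulated data. A few genes of the lists are not reported here.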

Additional observations from a re-analysis of the deposited data

How the results depend on the processing

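Of 355 combinations of a result and an alternative (11 alternatives, of which 2 were chosen after seeing the data), 288 stayed close to the reported value: a shift of at most 0.1 in log2 for a median (with no change of sign) or a share, a ratio of at most 1.5 for a count, and the same side of the call for a single gene. A change of sign was seen in 16, of which 8 had both values past 0.02 from 0; the other 8 began within 0.02 of 0, and 7 of them are background medians. Less the background median, the medians of the ribosomal protein genes kept their sign in 54 of 55 combinations; for AP3 in Arhgef2-/- cells the difference of -0.0019 became 0.0015 without genes that share at least 30% of their 35-base stretches with a single other gene of the table (62 genes left). The rescalings among the alternatives shift both medians by nearly the same amount, so they are a weak check of the sign of this difference. The cause of the shifts with scaling was not tested.

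With each group scaled to a common sum over all genes, the median of the ribosomal protein genes became -0.11 for AP3 in WT, 0.037 for genotype with AP3 and -0.061 for the difference of AP3 effects, and the background medians became -0.25, 0.21 and -0.20, and 0.012 for genotype untreated. The numbers of ribosomal protein genes that were higher became 4 for AP3 in WT, 5 for AP3 in Arhgef2-/-, 50 for genotype with AP3 and 9 for the difference. With small RNA genes left out of the sum, the medians became -0.069, 0.023 and -0.022, the background medians -0.22, 0.20, -0.17 and, for genotype untreated, 0.036, and the numbers higher 10, 5, 50 and 25, with 37 for genotype untreated. Median-ratio rescaling gave a background median of -0.0015 for AP3 in WT.

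Background genes under -1 with these 2 sums numbered 536 and 486 for AP3 in WT, 144 and 152 for genotype with AP3, and 152 and 138 for the difference; those over 1 numbered 518 and 524 for genotype with AP3. A pseudocount of 0.1 gave 150.0 over 1 and 62 under -1 for AP3 in Arhgef2-/-, 239 and 133 for genotype untreated, 436 and 365 for genotype with AP3, 389 under -1 for AP3 in WT and 163 under -1 for the difference. A pseudocount of 5 gave 271 and 47 for AP3 in WT, 59 and 18 for AP3 in Arhgef2-/-, 62 and 39 for genotype untreated, 79 and 127 for genotype with AP3, and 91 and 32 for the difference. It took the call from Rpl39l (0 ribosomal protein genes past 1 in either genotype comparison), as did a filter of 5 FPKM (0 and 0) and at least 50 FPKM in every group (0 and 0), which leave Rpl39l out.

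For genotype with AP3, the number of ribosomal protein genes higher became 2 with the filter of 5 FPKM, 0 with at least 50 FPKM in every group, 1 with the sum of both values at the 4 shared loci, of which 2 partners have the status LOWDATA, and 1 with those 62 genes. Without small RNA genes in the total, the shares of FPKM became 15.7%, 15.1%, 15.8% and 15.3%. No paired analysis was possible because each group has 1 pooled value, and leaving out each replicate was not run for the same reason. A comparison of protein sequences was not run. The number of reads obtained behind each value is unknown.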

Other observations

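Genes whose symbols begin with Rps6k encode kinases or kinase-like proteins and not parts of the ribosome; the S6 kinases among them act on the ribosomal protein Rps6. Rps6ka2, a kinase of the RSK family, stood at 5.81 FPKM in untreated WT, 12.1 in AP3-treated WT, 5.13 in untreated Arhgef2-/- and 6.08 in AP3-treated Arhgef2-/- cells. Its intervals in WT cells (4.68 to 6.95 untreated and 9.83 to 14.3 with AP3) did not overlap, and the log2 ratio for AP3 was 0.94 in WT and 0.21 in Arhgef2-/- cells, a difference that was not tested. Of the 10 such genes in the table, 5 were higher and 4 lower with AP3 in WT cells as deposited (background 50.1% higher), and 1 was listed at 0 in both groups. The lower ones were Rps6ka1 (-0.17), Rps6ka4 (-0.45), Rps6ka5 (-0.37) and Rps6kc1 (-0.48). Rps6kl1, at a low level (0.130 FPKM untreated and 0.520 with AP3 in WT cells), also had intervals apart in WT cells, as did 16.8% of background genes. The S6 kinase genes had 12.7, 12.8, 12.5 and 13.3 FPKM for Rps6kb1 and 10.7, 13.3, 11.3 and 13.0 FPKM for Rps6kb2 in the same order. These kinase genes were chosen after their values were seen.

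Among the genes with the highest values in the table were small RNA genes, such as Mir5109, at 31727, 57889.6, 37832 and 44003 FPKM in untreated WT, AP3-treated WT, untreated Arhgef2-/- and AP3-treated Arhgef2-/- cells. Mir1935 was listed at 15709, 11732, 0 and 9039 FPKM. Single small RNA genes of this size enter the sum to which the groups were scaled.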
